A study of Mus musculus with 2 samples.

Results

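The glutathione and antioxidant enzymes considered here are the genes whose names match glutathione S-transferases (Gst with a class letter), microsomal glutathione S-transferases (Mgst), glutathione peroxidases (Gpx), peroxiredoxins (Prdx) or the thioredoxin prefix Txn, together with Gclc, Gclm, Gss, Gsr, Nqo1, Hmox1, Srxn1, Sod1, Sod2 and Cat. Names with -ps were left out. They were chosen by name from every gene that the authors' table names in any of its 11 cell clusters, which gave 60 of 18319 genes. The annotation holds 68 protein-coding genes with such names, and the others were not analysed here. The cells came from 2 tumors that grew after injection of mouse dysplastic stem cells, named DP-DSC in the labels, into female mice of the NuJ strain, and single-cell RNA sequencing was done on the inDrop droplet platform. A cystic adenocarcinoma, collected 10 weeks after the injection, and a tubular adenocarcinoma, collected at 13 weeks, gave 1 library each. The table gives clusters and no tumor type, so the tumor types were not compared, and no value has an error across animals. Sources used here do not give the depth or the number of cells per cluster.

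Glutathione is a small thiol made in a pair of steps by glutamate-cysteine ligase and glutathione synthetase, and its oxidised form is recycled by glutathione reductase. Glutathione peroxidases spend it on peroxides and glutathione S-transferases attach it to reactive compounds, while peroxiredoxins remove peroxides with electrons from thioredoxin. In many tissues a large share of these genes is induced by the transcription factor NRF2 (Nfe2l2) through antioxidant response elements, and the lining of the stomach and gut, which meets oxidants from the lumen, carries its own glutathione peroxidase, Gpx2.

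Listed means here that the table gives the gene a fold in that cluster. Raised means a listed fold of 2 or more together with a p, as deposited, no larger than 0.05. Every fold of the authors' deposited table is above 1.5, so an unlisted gene may be lower, equal or only slightly higher in that cluster. By marker genes, cluster 4 was macrophage-like (10 of 10 macrophage markers raised) and cluster 11 fibroblast-like (10 of 10 fibroblast markers). Cluster 10 had 6 of 7 neutrophil markers raised, beside markers of other cells given below, and keeps its number. Clusters 3, 6 and 9 were epithelial-like, with 4, 5 and 5 of 9 general epithelial markers and 3, 6 and 7 of 7 surface mucous markers raised. Cluster 8 had 10 of 10 macrophage and 7 of 9 dendritic markers raised and keeps its number. Clusters 1, 2, 5 and 7 also keep their numbers: 5 of 6 erythroid markers were raised in cluster 2 and 1 of 6 in cluster 1, 3 of 4 mast cell markers in cluster 5, and 2 of 9 general epithelial markers in cluster 7. All these counts are out of the markers named in at least 1 cluster. Those were 4 of 7 mast cell, 7 of 8 neutrophil, 7 of 8 surface mucous, 6 of 7 erythroid, 6 of 7 T and NK and 5 of 6 endothelial markers. The labels call all cells tumor cells, whereas markers of immune cells and fibroblasts were raised in these clusters. In cluster 4, 4 of 9 dendritic markers were raised as well, and in cluster 10 so were 4 of 10 macrophage, 4 of 9 dendritic, 5 of 6 T and NK and 2 of 5 endothelial markers. Their part in the values below was not tested.

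Different members were raised in different kinds of cell. Gpx2 and both omega-class transferases were raised in the epithelial-like clusters 6 and 9, and Hmox1 and Gpx1 in the macrophage-bearing clusters 4 and 8. Gpx3, Gpx7 and Gpx8 were raised in the fibroblast-like cluster 11, Prdx2 in cluster 2 and Txnip in cluster 10. At least 1 cluster raised 48 of the 60 members, which is 80.0% against 78.0% of all genes named. The module as a whole was therefore raised somewhere about as often as any gene in the table. Raised in exactly 1 cluster were 24 members, in 2 clusters 19 and in 3 clusters 5, and no member was raised in more than 3. Over all genes named, 9333 were raised in 1 cluster, 4085 in 2 and 813 in 3. As shares, 40.0% of members against 50.9% of all genes were raised in exactly 1 cluster. The shares were 31.7% against 22.3% for 2 clusters and 8.33% against 4.44% for 3. Of all genes, 0.317% were raised in 4 clusters.

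By cluster, the count of raised members was 16 in cluster 6, or 26.7% against a background of 20.3% of all genes named. It was 14 in cluster 11 (23.3% against 17.0%), 12 in cluster 9 (20% against 26.6%) and 8 in cluster 4 (13.3% against 18.6%). Cluster 7 also had 8 (13.3% against 3.42%), and cluster 2 had 5 (8.33% against 2.89%). The remaining counts were 5 in cluster 8 (8.33% against 6.36%), 4 in cluster 3 (6.67% against 4.0%), 4 in cluster 5 (6.67% against 4.32%), 1 in cluster 10 (1.67% against 4.9%) and 0 in cluster 1 (0.0% against 1.82%). In clusters 2 and 7 the members' share was thus well above that of all genes, and in clusters 1, 4, 9 and 10 it was below it. For some clusters the side of the background depended on the choices made: at a fold of at least 3 the share was below it in clusters 3 (1.67% against 3.20%), 5 (3.33% against 3.70%) and 6 (8.33% against 11.98%). In cluster 8 it was below with no threshold on the p (16.7% against 20.3%). In clusters 5 and 8 it was below without the Gsta, Gstm, Gstt, Txndc and Txnl4 genes. Listed members, whatever their p, numbered 26 in cluster 6 (43.3% against 36.4% of all genes named), 24 in cluster 3 (40% against 29.9%), 18 in cluster 9 (30% against 38.9%) and 17 in cluster 11 (28.3% against 25.7%). They numbered 15 in cluster 5 (25% against 20.6%), 14 in cluster 8 (23.3% against 26.4%), 12 in cluster 2 and 12 in cluster 7 (20% against 9.07% and 12.1%), 11 in cluster 4 (18.3% against 31.5%) and 9 in cluster 10 (15% against 18.9%). Cluster 1 listed 0 members at any fold, although it listed 6.34% of all genes. With counts this small and no replicate libraries, these shares describe the table and carry no test.

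**Figure D1:**
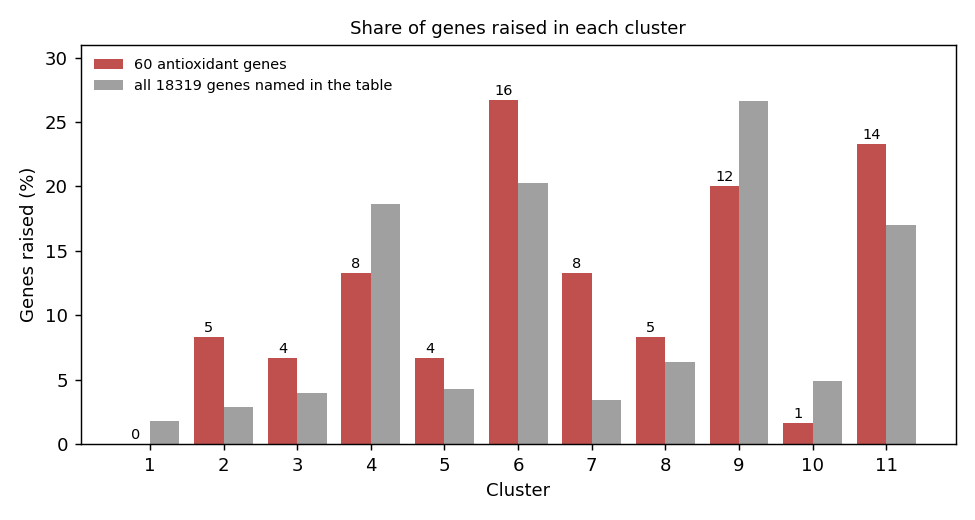
Share of genes raised (y axis, percent) in each of the 11 clusters (x axis) for the 60 antioxidant genes (red, with the number raised above each bar) and for all 18319 genes named in the table (grey). The red bar stands above the grey one in clusters 2, 3, 5, 6, 7, 8 and 11, and below it in clusters 1, 4, 9 and 10.

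The members' folds were mostly modest. Over listed members the median fold per the authors' deposited table was 2.21 in cluster 6, 2.30 in cluster 9 and 4.55 in cluster 11, against 2.57, 2.46 and 3.27 over all genes listed there. The fibroblast-like cluster is thus the one of these 3 in which the median of listed members lay above that of listed genes. This was not particular to it, because cluster 2 had 4.18 against 3.72. In clusters 3, 4, 5, 8 and 10 the members' median lay below. Cluster 7 had a median of 3.24 over listed members and 3.80 over all listed genes per the authors' deposited table.

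**Figure D2:**
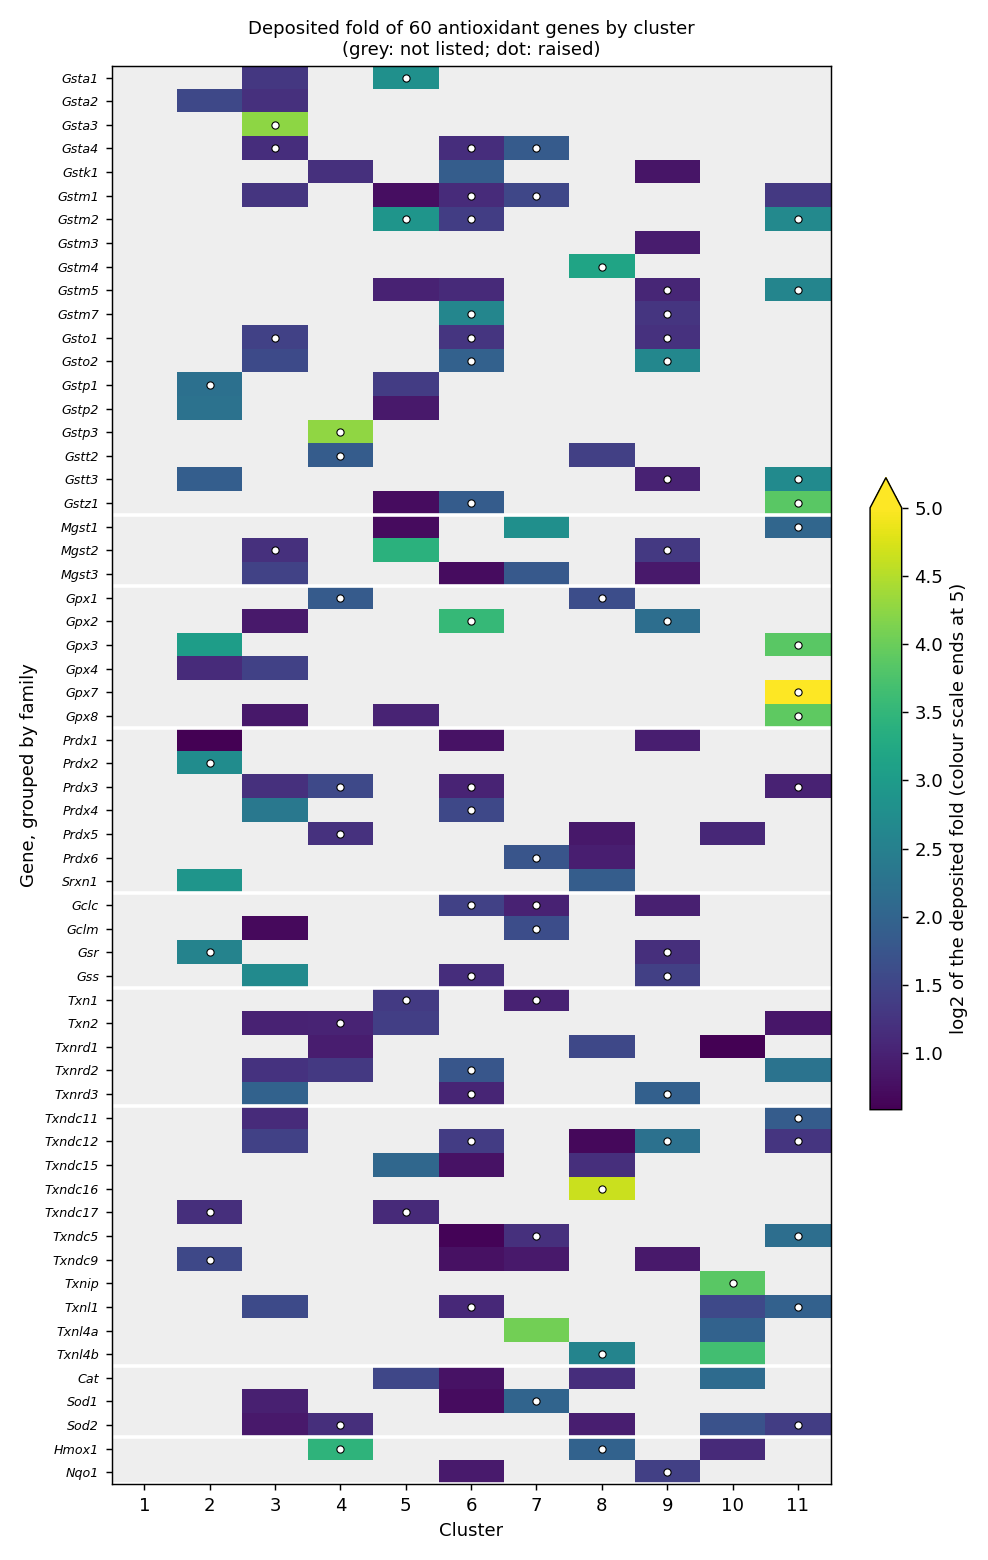
Deposited fold of all 60 genes (rows, grouped by family, white lines between families) in the 11 clusters (columns), as log2 in colour, with grey for gene and cluster pairs that the table does not list and a white dot where the gene is raised. The column of cluster 1 is empty, and the column of cluster 11 holds the brightest cell, Gpx7 at 116.5.

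Promoter windows were read for the core of the antioxidant response element, TGACNNNGC, on both strands, because this is the site through which NRF2 acts on many of these genes. A window runs from 250 bases before to 50 bases after an annotated RefSeq start on GRCm38.p6. Windows exist for 52 of the 60 members, and 11 of these (21.2%) hold the motif in at least 1 window, against 16.6% of the named genes that have a window and 14.0% of all genes with one. The motif was in the windows of 8 of 41 raised members and of 3 of 11 members that were not raised in any cluster. A match of these letters is a description of the window and not evidence that NRF2 binds there. Sites farther from the start were not read, so these shares may miss elements of the same genes. No match was found for Hmox1, Gclc or Nqo1. The stretches below come from RefSeq and show the match in capitals for genes of glutathione synthesis and conjugation and for a peroxiredoxin and a thioredoxin reductase. A match on the strand opposite to the gene reads GCNNNGTCA.
Gclm: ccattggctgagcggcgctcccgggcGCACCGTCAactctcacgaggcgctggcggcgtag
Gsta3: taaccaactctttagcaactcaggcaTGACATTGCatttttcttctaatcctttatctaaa
Gstm5: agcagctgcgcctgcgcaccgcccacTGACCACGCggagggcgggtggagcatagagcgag
Gstm7: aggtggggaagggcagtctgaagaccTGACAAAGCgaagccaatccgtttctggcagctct
Mgst1: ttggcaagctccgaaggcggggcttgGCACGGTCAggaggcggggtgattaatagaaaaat
Prdx1: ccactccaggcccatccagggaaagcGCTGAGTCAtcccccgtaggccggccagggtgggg
Txnrd1: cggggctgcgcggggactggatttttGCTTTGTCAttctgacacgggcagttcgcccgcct

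Each stretch is written 5′ to 3′ along its gene. On GRCm38.p6 they lie at chr3:122245397-122245457 (Gclm), chr1:21240438-21240498 (Gsta3), chr3:107895786-107895846 (Gstm5), chr6:138140445-138140505 (Mgst1), chr4:116685440-116685500 (Prdx1) and chr10:82859088-82859148 (Txnrd1) on the + strand, and at chr3:107931709-107931769 (Gstm7) on the - strand. The Prdx1 match also contains TGACTCA, the site of AP-1 factors, and it was the only 1 of the 11 matches among the members to do so. Gclm, Gsta3, Gstm5, Gstm7 and Mgst1 were raised in at least 1 cluster, and Prdx1 and Txnrd1 in none.

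Genes of glutathione synthesis were raised in clusters 6, 7 and 9. Gclc encodes the catalytic subunit of glutamate-cysteine ligase, the rate-limiting enzyme. It had a fold of 2.6998 in cluster 6 and 2.001 in cluster 7, both raised, and 1.97 in cluster 9, which missed the fold threshold, per the authors' deposited table. Gclm encodes the modifier subunit of the same enzyme and was raised at 3.10 in cluster 7 per the authors' deposited table. Cluster 7 was the only cluster with both subunits raised, and Gclm was otherwise listed at 1.63 in cluster 3 per the authors' deposited table. Glutathione synthetase (Gss) was raised at 2.23 in cluster 6 and 2.67 in cluster 9, and its largest value, 6.47 in cluster 3, was not raised, per the authors' deposited table. Glutathione reductase (Gsr) was raised at 5.92 in cluster 2 and 2.26 in cluster 9 per the authors' deposited table. In cluster 9 Gsr came at place 53 of 7131 listed genes when these are ordered by deposited p, the earliest place of any member there.

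Of the 6 glutathione peroxidases, 5 were raised in at least 1 cluster, which is close to the 78.0% of all genes. Gpx2, the gastrointestinal enzyme, had folds of 1.86 in cluster 3, 11.6 in cluster 6 and 4.53 in cluster 9 per the authors' deposited table, and was raised in clusters 6 and 9. All 3 clusters that list it were epithelial-like. Gpx2 lies on chromosome 12 from 76792333 to 76795554. It had the largest fold of any member in cluster 6, at place 1303 of 6664 by p.

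Gpx1, the widely expressed cytosolic enzyme, was listed and raised at 3.62 in cluster 4 and 3.11 in cluster 8 per the authors' deposited table. These are the clusters in which all 10 macrophage markers were raised. Gpx1 came at place 27 of 4844 in cluster 8 and at place 81 of 5762 in cluster 4, so it was among the earliest genes by p in both. It lies on chromosome 9 from 108338903 to 108340343.

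Gpx3, Gpx7 and Gpx8 were raised in the fibroblast-like cluster 11 and in no other cluster. Gpx3, a secreted enzyme of plasma and extracellular fluid, was at 14.6 in cluster 11 and, not raised, at 8.26 in cluster 2 per the authors' deposited table. Gpx7, an enzyme of the endoplasmic reticulum, was listed in cluster 11 alone, at 116.5 per the authors' deposited table, the largest fold of any member in any cluster. Gpx8, a membrane protein of the endoplasmic reticulum, was at 15.0 in cluster 11, and at 1.82 in cluster 3 and 2.04 in cluster 5, neither raised, per the authors' deposited table. By p, Gpx3 came at place 57, Gpx7 at place 103 and Gpx8 at place 342 of 4710. The level in the reference cells, on which the size of such folds depends, is not in the table.

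Gpx4, which reduces lipid peroxides within membranes, was listed at 2.19 in cluster 2 and 2.72 in cluster 3 per the authors' deposited table and was raised in neither. Of the 50-base words in the last 400 bases of its transcript, 85.8% also occur in the pseudogene Gpx4-ps2, so reads of these genes may not have been separable. Gpx4-ps2 itself was raised at 2.14 in cluster 3 and 2.53 in cluster 7 per the authors' deposited table.

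**Figure D3:**
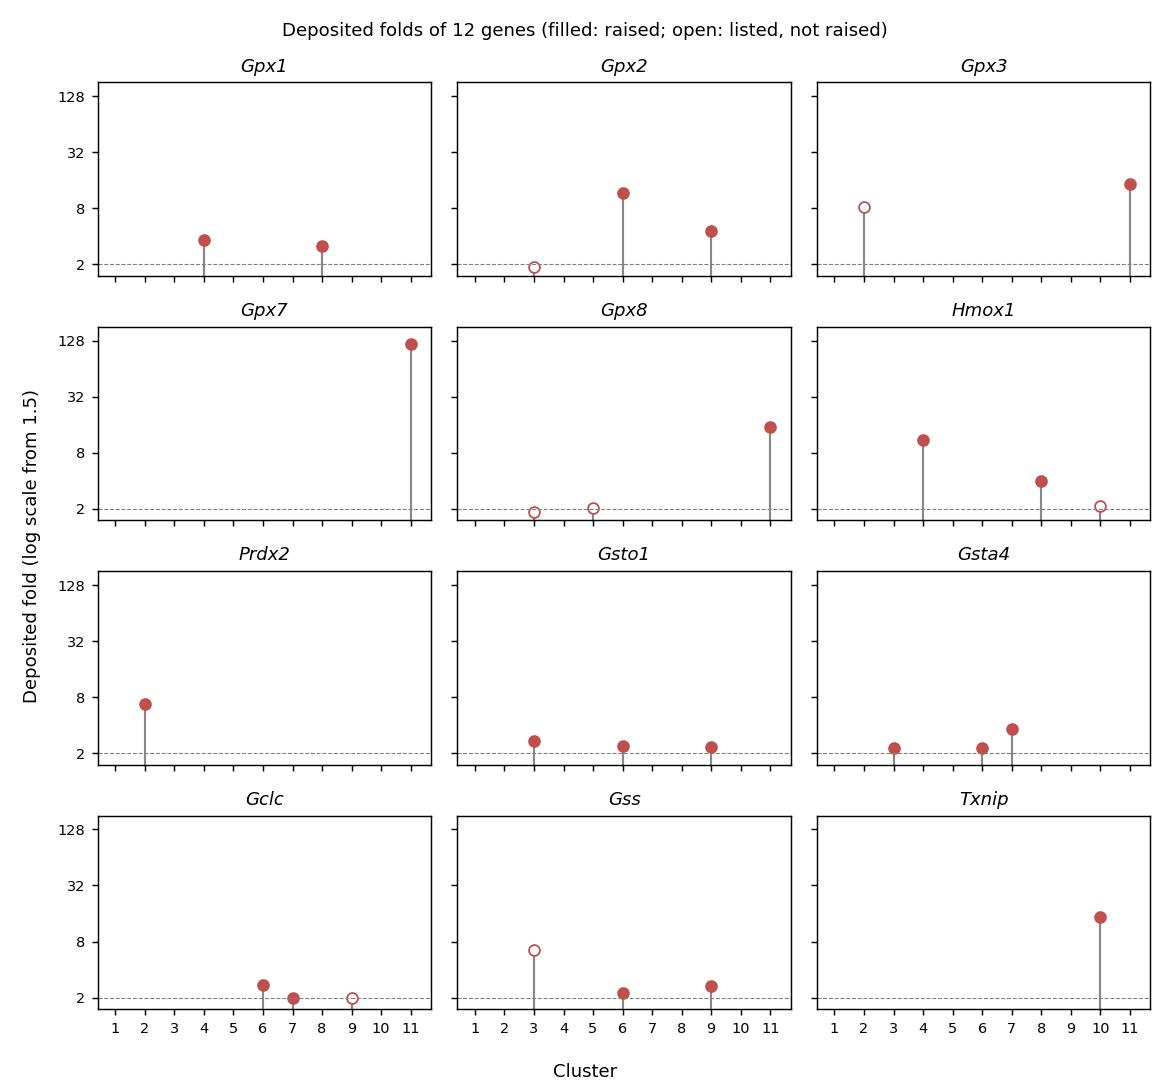
Deposited fold (y axis, log scale starting at the smallest listed value) of 12 genes in the 11 clusters (x axis), with filled points for raised genes, open points for listed genes that are not raised, no point where the table does not list the gene, and a dashed line at a fold of 2. Gpx2 stands in clusters 3, 6 and 9, Gpx1 in clusters 4 and 8, and Gpx7 in cluster 11 alone.

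Cytosolic and mitochondrial glutathione S-transferases made up 19 members, of which 15 were raised in at least 1 cluster, a share close to the 78.0% of all genes. Cluster 6 had 7 of them raised, where 20.3% of all genes were, cluster 9 had 5 (26.6% of all genes), cluster 11 had 4 (17.0%) and cluster 3 had 3 (4.0%). Of the omega class, Gsto1, which also reduces dehydroascorbate, was raised in all 3 epithelial-like clusters, at 2.699 in cluster 3, 2.39 in cluster 6 and 2.33 in cluster 9 per the authors' deposited table, and was listed in no other. By p it was the first member in cluster 6 (place 14 of 6664) and in cluster 3 (place 32 of 5474). Its neighbour Gsto2 was raised at 3.87 in cluster 6 and 6.19 in cluster 9, and listed at 2.97 in cluster 3 without being raised, per the authors' deposited table. Gsto1 lies on chromosome 19 from 47854970 to 47864790.

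Of the 4 alpha-class genes, 3 were raised in at least 1 cluster, close to the 78.0% of all genes. Gsta4, which conjugates the lipid aldehyde hydroxynonenal, was raised at 2.25 in cluster 3, 2.24 in cluster 6 and 3.60 in cluster 7 per the authors' deposited table. Gsta3 was listed in cluster 3 alone, at 19.1 per the authors' deposited table, and was raised. Gsta1 was raised at 6.93 in cluster 5 and listed at 2.47 in cluster 3, and Gsta2 was listed at 2.93 in cluster 2 and 2.30 in cluster 3 and raised in neither, per the authors' deposited table. All 4 alpha-class genes were thus listed in cluster 3, where 29.9% of all genes were listed. Only Gsta3 and Gsta4 were raised there, where 4.0% of all genes were. Gsta1 shares 87.2% and Gsta2 46.7% of the 50-base words near their 3′ ends with transcripts of other genes, so their counts are uncertain.

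The 6 mu-class genes were spread over more clusters. Gstm2 was raised at 7.39 in cluster 5, 2.60 in cluster 6 and 6.34 in cluster 11 per the authors' deposited table. Gstm1 was raised at 2.19 in cluster 6 and 2.89 in cluster 7, and was listed at 1.68 to 2.48 in clusters 3, 5 and 11 without being raised, per the authors' deposited table. Gstm7 was raised at 6.10 in cluster 6 and 2.40 in cluster 9, while Gstm5 was raised at 2.09 in cluster 9 and 6.03 in cluster 11, per the authors' deposited table. Gstm7 and Gstm5 came late by p in cluster 9, at places 6822 and 6140 of 7131. Gstm5 was also listed at 2.01 in cluster 5 and 2.15 in cluster 6, and Gstm3 at 1.89 in cluster 9, with none of these raised, per the authors' deposited table. Gstm4 stood apart from the others, listed and raised in cluster 8 alone at 8.99 per the authors' deposited table.

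Of the pi class, Gstp1 was raised at 4.63 in cluster 2 and listed at 2.59 in cluster 5, and Gstp2 was listed in the same clusters at 4.75 and 1.86 without being raised, per the authors' deposited table. Gstp1 and Gstp2 share 91.2% of these 3′ words with each other and cannot be told apart from these values. Gstp3 was listed and raised in cluster 4 alone, at 19.2 per the authors' deposited table, at place 2256 of 5762. The theta-class gene Gstt2 was raised at 3.67 in cluster 4 and listed at 2.68 in cluster 8, and Gstt3 was raised at 2.02 in cluster 9 and 6.52 in cluster 11 and listed at 3.74 in cluster 2, per the authors' deposited table. Gstz1, an enzyme of tyrosine breakdown, was raised at 3.65 in cluster 6 and 14.7 in cluster 11 and listed at 1.65 in cluster 5 per the authors' deposited table. Gstk1, found in mitochondria and peroxisomes, was listed at 1.79 to 3.70 in clusters 4, 6 and 9 and raised in none per the authors' deposited table.

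Among the 3 microsomal transferases, Mgst1, which protects membranes from lipid peroxides, was raised at 4.10 in cluster 11 per the authors' deposited table. Its larger value of 6.87 in cluster 7 was not raised, and it was listed at 1.64 in cluster 5, per the authors' deposited table. Mgst2 was raised at 2.29 in cluster 3 and 2.48 in cluster 9, and its 10.5 in cluster 5 was not raised, per the authors' deposited table. Mgst3 was listed in clusters 3, 6, 7 and 9 at 1.67 to 3.51 and raised in none per the authors' deposited table.

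Peroxiredoxins showed a different arrangement. Prdx2, a major peroxiredoxin of red blood cells, was listed and raised in cluster 2 alone, at 6.68 per the authors' deposited table. Cluster 2 was the cluster with 5 of 6 erythroid markers raised. Prdx2 lies on chromosome 8 from 84969587 to 84974834 and came at place 218 of 1661 by p. The other raised members there were Gsr at 5.92, Gstp1 at 4.63, Txndc9 at 2.91 and Txndc17 at 2.27 per the authors' deposited table.

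Prdx3, the mitochondrial peroxiredoxin, was raised at 2.96 in cluster 4, 2.03 in cluster 6 and 2.01 in cluster 11 and listed at 2.31 in cluster 3 per the authors' deposited table. Prdx4, which acts in the endoplasmic reticulum, was raised at 2.92 in cluster 6, and its 5.08 in cluster 3 was not raised, per the authors' deposited table. Prdx5 was raised at 2.31 in cluster 4 and listed at 1.83 in cluster 8 and 2.10 in cluster 10 per the authors' deposited table. Prdx6 was raised at 3.37 in cluster 7 and listed at 1.94 in cluster 8 per the authors' deposited table. Prdx1, an abundant cytosolic peroxiredoxin, was listed at 1.51 to 1.93 in clusters 2, 6 and 9, and sulfiredoxin (Srxn1), which repairs overoxidised peroxiredoxins, at 7.40 in cluster 2 and 3.71 in cluster 8, and neither was raised, per the authors' deposited table. Prdx1 missed only the fold threshold: by p it came at place 17 of 1661 in cluster 2 and at place 106 of 7131 in cluster 9.

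Of the thioredoxins, cytosolic Txn1 was raised at 2.53 in cluster 5 and 2.02 in cluster 7 per the authors' deposited table. Mitochondrial Txn2 was raised at 2.03 in cluster 4 and listed at 1.81 to 2.65 in clusters 3, 5 and 11 per the authors' deposited table. The reductases that recharge them behaved differently from each other. Mitochondrial Txnrd2 was raised at 3.41 in cluster 6 and listed, without being raised, at 2.36 in cluster 3, 2.48 in cluster 4 and 4.81 in cluster 11, per the authors' deposited table. Txnrd3 was raised at 2.05 in cluster 6 and 3.85 in cluster 9, and its 3.95 in cluster 3 was not raised, per the authors' deposited table. Cytosolic Txnrd1 was listed at 1.91 in cluster 4, 2.92 in cluster 8 and 1.51 in cluster 10 and raised in none per the authors' deposited table.

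Txnip, which binds thioredoxin and restrains glucose uptake, was listed and raised in cluster 10 alone. Its fold was 14.5 per the authors' deposited table, at place 316 of 3466 by p. Txnip was the only member raised there, although 9 were listed. Markers of several cell types were raised in cluster 10, and which of these cells carried Txnip was not tested. Txnip lies on chromosome 3 from 96557957 to 96561883. The other members listed in cluster 10 ranged from Txnrd1 at 1.51 to Txnl4b at 12.7 per the authors' deposited table, with p above 0.05 for each.

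Other proteins with a thioredoxin fold are chiefly folding enzymes and splicing factors rather than antioxidants. Those of the endoplasmic reticulum included Txndc5, raised at 2.30 in cluster 7 and 4.55 in cluster 11, and Txndc11, raised at 3.68 in cluster 11, per the authors' deposited table. Txndc12 was raised at 2.59 in cluster 6, 4.71 in cluster 9 and 2.40 in cluster 11 per the authors' deposited table. Txndc16 was listed and raised in cluster 8 alone, at 25.1 per the authors' deposited table, and Txndc15 was listed at 1.74 to 4.19 in clusters 5, 6 and 8 and raised in none. The cytosolic Txndc17 was raised at 2.27 in cluster 2 and 2.16 in cluster 5, and Txndc9, a regulator of the chaperonin, at 2.91 in cluster 2, per the authors' deposited table. Txnl1, which associates with the proteasome, was raised at 2.13 in cluster 6 and 3.87 in cluster 11 per the authors' deposited table. Of the splicing factors, Txnl4b was raised at 5.95 in cluster 8, and Txnl4a, at 16.7 in cluster 7 and 3.93 in cluster 10, was raised in neither, per the authors' deposited table.

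Superoxide dismutases turn superoxide into hydrogen peroxide, which catalase and the peroxidases then remove. Sod2, the mitochondrial enzyme, was raised at 2.26 in cluster 4 and 2.63 in cluster 11 per the authors' deposited table. Sod2 was also listed in clusters 3, 8 and 10, at 1.85, 1.95 and 3.24, none of them raised, per the authors' deposited table. Sod1, the cytosolic copper and zinc enzyme, was raised at 4.001 in cluster 7 and listed at 1.96 in cluster 3 and 1.67 in cluster 6 per the authors' deposited table. In cluster 6 Sod1 came at place 77 of 6664 by p, so its value there was small in fold but early in the list. Catalase (Cat) was listed in clusters 5, 6, 8 and 10 at 2.88, 1.75, 2.24 and 4.38 and raised in none per the authors' deposited table.

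Haem oxygenase 1 (Hmox1), which breaks down haem and marks macrophages that take up red cells, was raised at 10.98 in cluster 4 and 3.94 in cluster 8 per the authors' deposited table. It was listed at 2.15 in cluster 10 without being raised per the authors' deposited table. In cluster 4 it was the first member by p, at place 54 of 5762. Hmox1 lies on chromosome 8 from 75093621 to 75100589. Nqo1, a quinone reductase often used as a readout of NRF2, was raised at 2.67 in cluster 9, late by p at place 6665 of 7131, and listed at 1.87 in cluster 6, per the authors' deposited table. Hmox1 was listed in 3 of the 11 clusters and Nqo1 in 2, with none shared. With so few clusters each, the lack of overlap says little about how the genes relate.

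Cluster 7 joined members of several families. In order of deposited p its raised members were Txn1, Prdx6, Sod1, Gsta4, Gclm, Gstm1, Gclc and Txndc5, with folds from 2.001 to 4.001 per the authors' deposited table. Of its 2217 listed genes 36.8% had a deposited p of at most 0.05, against 97.3% of the 7131 in cluster 9. The number of raised genes of any kind therefore differed greatly between clusters, and the clusters' own backgrounds above are the values to read beside the members' counts.

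Other genes of the pathway were taken from fixed lists, and their counts are to be read against the 78.0% of all genes that were raised in at least 1 cluster. No difference from that share was tested. Of 9 NRF2 regulators, 6 were raised somewhere. Nfe2l2 itself was raised at 2.23 in cluster 4 and listed at 1.60 in cluster 10, and its inhibitor Keap1 was listed at 12.5 in cluster 3 and 1.61 in cluster 6 and raised in neither, per the authors' deposited table. The 3 raised values of largest size were those of the repressor Bach1 in cluster 8 (4.30), the ubiquitin ligase scaffold Cul3 in cluster 5 (3.53) and the NRF2 partner Mafg in cluster 4 (3.46) per the authors' deposited table. Nfe2l2, Mafg and Hmox1 were thus all raised in cluster 4, where 18.6% of all genes were. Nqo1, Gclc, Gclm and Srxn1 were not listed there. Hmox1 was also raised in cluster 8, where Bach1 was raised and Nfe2l2 was not listed. A link between these genes was not tested.

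The list for NADPH, the electron source of both reductases, had 7 of 8 members raised somewhere against the same 78.0%. It was led per the authors' deposited table by the mitochondrial transhydrogenase Nnt at 11.1 in cluster 5. Tkt and Taldo1, pentose phosphate enzymes that do not form NADPH themselves, were raised in cluster 7 at 3.46 and 3.43 per the authors' deposited table. Pgd was listed there at 1.88 without being raised, and was raised at 2.83 in cluster 1, per the authors' deposited table. G6pdx was listed at 5.82 in cluster 5 and 2.01 in cluster 11 and raised in neither per the authors' deposited table. Malic enzyme Me1 was raised in the epithelial-like clusters 3, 6 and 9 at 3.34, 3.12 and 2.31 per the authors' deposited table. Of 10 named genes of cystine uptake and glutathione turnover 9 were raised somewhere, again beside 78.0% of all genes. The dipeptidase Dpep1 was at 106.4 in cluster 11, the cystine transporter Slc7a11 at 9.21 in cluster 10 and the glutathione-degrading enzyme Chac2 at 6.79 in cluster 9 per the authors' deposited table. Slc7a11 was also raised at 2.15 in cluster 4 per the authors' deposited table. Gclc, Gclm, Gss and Gsr were listed in neither cluster 10 nor cluster 4.

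Conjugate exporters and other detoxifying enzymes had 6 of 11 named genes raised in cluster 6 and 5 in cluster 9, where 20.3% and 26.6% of all genes were raised. The 3 largest raised values of the list per the authors' deposited table were Ugdh at 8.35 in cluster 11, Osgin1 at 8.30 in cluster 10 and the aldehyde dehydrogenase Aldh3a1 at 6.11 in cluster 9. Akr1b8, an aldo-keto reductase, was raised at 3.47 in cluster 6 and 5.42 in cluster 9, and the exporter Abcc4 at 3.39 and 3.37, per the authors' deposited table. Glutaredoxins had 4 of 4 genes raised somewhere (78.0% of all genes), with Glrx at 10.7 in cluster 1, Glrx5 at 3.32 in cluster 11 and Glrx3 at 3.10 in cluster 11 per the authors' deposited table.

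Genes that make oxidants were raised beside these enzymes in clusters 4 and 8 and in others. The phagocyte oxidase subunits Cybb, Cyba, Ncf1 and Ncf4 were raised in both cluster 4 and cluster 8. In these clusters 18.6% and 6.36% of all genes were raised. Cybb was also raised at 3.85 in cluster 7 and 4.61 in cluster 10 per the authors' deposited table. Cyba was at 7.12 in cluster 4 and 6.09 in cluster 8 per the authors' deposited table. The 3 largest raised values of the list belonged to Duox1 (61.1) and Nox4 (12.7) in cluster 11 and to the oxidase maturation factor Duoxa2 (16.4) in cluster 3 per the authors' deposited table. Of 13 other antioxidant and repair genes 12 were raised somewhere, against 78.0% of all genes, and 5 in cluster 11, against 17.0%. In cluster 11 the extracellular superoxide dismutase Sod3 was at 394.2 and the metallothionein Mt2 at 21.2 per the authors' deposited table. The third value by size was that of the methionine sulfoxide reductase Msrb2, at 11.2 in cluster 10 per the authors' deposited table. Gpx3 and Sod3, both secreted enzymes, were thus raised in the same fibroblast-like cluster.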

How the data were processed

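Libraries from a cystic and a tubular adenocarcinoma, 1 each, were made by TruDrop preparation on inDrop, per the labels' protocols. The submitters' processing notes name mm10, STAR 2.7.3a, Partek and DESeq2 3.5, with no step given for each. The authors deposited 1 table of their own comparisons: for each of 11 clusters, gene names, a p-value and a fold, which is a linear ratio, per the file headers. Sources used here do not give the reference of the fold, the test, cell filters, doublet treatment or depth. The deposited p rests on cells, which are not replicates, so it was used only as a filter. No test was run, because there is 1 library per tumor type and the table has 0 columns of per-sample values.

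Raised means a fold of 2 or more and a p no larger than 0.05, both as deposited. Background shares are over all 18319 genes named in the table, each of which is listed in at least 1 cluster. The members and lists were chosen with earlier results of these data known. All members are described, and up to 3 raised values of largest fold are named per pathway list. Further list genes, and the members whose sequences or plots are shown, were chosen after values were seen. Coordinates are 1-based from GENCODE M21 (GRCm38, mm10), and 60 of 60 members matched by symbol. Sharing of 3′ ends was counted as 50-base words of the last 400 bases of the transcript with the longest coding sequence that also occur in transcripts of other genes. By this measure 46 members share none, 8 share under 10% and 6 share more. A total of 24 members overlap another annotated gene, 20 of them one on the opposite strand; whether counting used strand is not stated, so such pairs may be mixed. Counting was tested on simulated data. Tools were Python 3.11.15, pandas 2.3.3 and matplotlib 3.10.9. Alternatives were folds of 1.5 and 3, a p of at most 0.01, no p threshold, and leaving out the Gsta, Gstm, Gstt, Txndc and Txnl4 genes. Other paralogs stayed in, among them Gstp1 and Gstp2, which share most of their 3′ words. Some genes of the oxidant producer list are not reported here.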

Additional observations from a re-analysis of the deposited data

How the results depend on the processing

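Counts of raised members depended on both thresholds. With a deposited fold of at least 3 the counts in clusters 2, 3, 4, 5, 6, 7 and 9 were 3, 1, 4, 2, 5, 4 and 4. The members' share then turned from above to below that of all genes in cluster 3 (1.67% against 3.20%), cluster 5 (3.33% against 3.70%) and cluster 6 (8.33% against 11.98%), and for genes raised in at least 1 cluster (56.7% against 60.8%). Cluster 7 kept its higher share, with 6.67% against 2.01%. With no threshold on the deposited p the counts in clusters 2, 3, 5, 8 and 10 were 11, 19, 11, 10 and 8. Their shares were 18.3% against 7.39% of all genes, 31.7% against 22.0%, 18.3% against 16.3%, 16.7% against 20.3% and 13.3% against 15.9%. Cluster 8 thus turned to below the background, as did the share raised in at least 1 cluster (96.7% against 98.9%). Without the Gsta, Gstm and Gstt paralogs and the Txndc and Txnl4 genes, which leaves 39 members, 31 were raised in at least 1 cluster, and the counts were 3, 2, 1, 5, 2 and 8 in clusters 2, 3, 5, 7, 8 and 11. The shares in clusters 5 and 8 turned to below the background (2.56% against 4.32%, and 5.13% against 6.37%), and those of the other 4 stayed above it (7.69% against 2.89%, 5.13% against 4.0%, 12.8% against 3.42% and 20.5% against 17.0%). A fold of at least 1.5 and a p of at most 0.01 kept all 12 counts within 1.5 times and turned no share. No paired analysis was possible because each tumor type has 1 library and the table has no columns of samples, and leaving out a library could not be done for the same reason. The depth behind each fold is unknown.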

Other observations

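Iron and haem genes had 6 of 7 members raised in at least 1 cluster, close to the 78.0% of all genes. Biliverdin reductase B (Blvrb), which acts after haem oxygenase and is abundant in red cells, was raised at 9.50 in cluster 2 per the authors' deposited table. The ferritin heavy chain Fth1 was raised at 5.74 in cluster 10 and 2.01 in cluster 4, and the iron exporter Slc40a1 at 3.68 in cluster 10, per the authors' deposited table. The ferritin light chain Ftl1 was raised at 2.44 in cluster 4, 2.19 in cluster 8 and 3.11 in cluster 10 per the authors' deposited table, so it was raised in both clusters that had Hmox1 raised and also in cluster 10.

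Of 5 genes that build selenocysteine into proteins such as some glutathione peroxidases, 2 were raised somewhere, against 78.0% of all genes. They were Pstk at 15.0 in cluster 11 and Eefsec at 2.97 in cluster 9, per the authors' deposited table. Among the names left out for -ps, Prdx2-ps1 was listed at 16.7 and Txn-ps1 at 7.69 in cluster 2, neither raised, per the authors' deposited table. Gpx4-ps1 was listed at 6.71 in cluster 7, 2.80 in cluster 10 and 1.90 in cluster 11 and raised in none per the authors' deposited table.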
